A study of Mus musculus with 24 samples.

Results

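Scavenger receptors, Toll-like receptors and 2 receptors that work beside them, Cd14 and Clec7a, were followed in injured mouse muscle as 10 genes out of the 14159 with a symbol. The genes were Marco, Msr1, Tlr1, Tlr2, Tlr4, Tlr7, Tlr8, Tlr13, Cd14 and Clec7a, chosen by name, and all 10 had a row among the expression values. Quadriceps muscle of C57BL/6 (B6) mice and of MRL/MpJ (MRL) mice was sequenced in bulk, in 8 groups of 3 libraries. In each strain, 1 group was uninjured and 3 had a volumetric muscle loss (VML) injury, in which a piece of the quadriceps was removed and the space received saline, decellularized extracellular matrix from pig small intestine (ECM) or polyethylene powder (PE). MRL is an inbred strain known for closing ear wounds and for autoimmune disease. Female mice were 6 to 8 weeks old at surgery, and injured muscle was collected on day 21, so every value belongs to whole quadriceps at a single time point. In bulk tissue, more cells of a type and more RNA per cell cannot be told apart.

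These receptors sense or take up particles, microbes and cell debris, mainly on macrophages, neutrophils and dendritic cells. Scavenger receptors bind modified lipoproteins, bacteria and inert particles and carry them into the cell. Toll-like receptors bind microbial products or nucleic acids with an outer horseshoe of leucine-rich repeats and, on binding, recruit adaptors such as Myd88 that switch on NF-kB and cytokine genes. Resting muscle holds few such cells, and macrophages gather where debris or an implant has to be cleared.

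On GRCm39, Tlr7 (chrX:166086758-166113605) and Tlr8 (chrX:166024184-166047325) are neighbours on the minus strand, 39433 bases apart. The other genes lie apart from each other, among them Clec7a at chr6:129438554-129449742, Msr1 at chr8:40034726-40095714, Tlr13 at chrX:105186810-105204533, Marco at chr1:120402267-120432753, Tlr2 at chr3:83743576-83749074, Tlr4 at chr4:66745783-66849936 and Tlr1 at chr5:65082022-65090941. Values are sums over the transcripts of a gene. No canonical transcript of these genes had a near-identical copy in another gene of the matrix (a match of 90% or more along 50% or more of the shorter of both transcripts). Their other transcripts were not searched. By share of the shorter transcript, the closest pair was Tlr1 and Tlr6, 88.8% identical over 1328 bases (43.6%), while the match of Tlr7 with Rab9 had 93.5% identity over 642 bases (12.9%), and reads that such stretches share may be split with some error. Promoters, the 250 bases before a start in RefSeq (GRCm38.p6), were on hand for 6 of the genes, in 8 sequences. They were searched on both strands for a PU.1 site (GAGGAAGT), an ETS core (CAGGAAGT), AP-1 (TGANTCA), C/EBP (TTNNGCAA), an interferon response element (GAAANNGAA) and NF-kB sites. Of 32851 mouse promoters of the same length, 2.44% held the PU.1 letters, 2.69% the ETS core, 6.75% AP-1, 9.56% C/EBP, 7.13% the interferon letters and 3.9% NF-kB. The sequences below are those of Clec7a and Tlr13, the genes with the largest changes under PE, and of Marco, which was near the detection limit without PE, none of which held a motif, and of the 3 genes with a match, which stands in capitals. Tlr1 held the PU.1 letters 23 to 16 bases before 1 of its starts, and its other sequence (chr5:64932700-64932949), not shown, held no motif. Tlr2 held overlapping NF-kB matches 173 to 163 bases before its start. Tlr8 held C/EBP letters at 29 to 22 bases and interferon letters, on the other strand, at 67 to 59 bases. Of the 8 sequences, 1 each held PU.1, C/EBP, NF-kB and interferon letters, and 0 held the ETS core or AP-1. A match is a description of the letters and not evidence of binding.
Clec7a (chr6:129472780-129473029, minus strand): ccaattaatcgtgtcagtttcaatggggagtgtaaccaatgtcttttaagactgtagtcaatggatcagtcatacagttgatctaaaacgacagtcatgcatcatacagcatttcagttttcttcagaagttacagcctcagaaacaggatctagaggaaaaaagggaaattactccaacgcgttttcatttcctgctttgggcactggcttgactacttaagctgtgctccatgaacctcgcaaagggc
Tlr13 (chrX:106143025-106143274, plus strand): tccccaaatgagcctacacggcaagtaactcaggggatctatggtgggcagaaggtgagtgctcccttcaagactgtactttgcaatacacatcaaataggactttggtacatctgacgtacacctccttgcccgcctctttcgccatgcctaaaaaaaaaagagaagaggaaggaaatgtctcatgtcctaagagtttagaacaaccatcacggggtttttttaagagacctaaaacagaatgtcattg
Marco (chr1:120505025-120505274, minus strand): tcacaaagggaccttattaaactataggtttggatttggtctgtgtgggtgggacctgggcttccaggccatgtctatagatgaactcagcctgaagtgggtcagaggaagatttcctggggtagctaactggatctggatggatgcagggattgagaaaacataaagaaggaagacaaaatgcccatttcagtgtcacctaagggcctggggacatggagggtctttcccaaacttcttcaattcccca
Tlr1 (chr5:64933559-64933808, minus strand): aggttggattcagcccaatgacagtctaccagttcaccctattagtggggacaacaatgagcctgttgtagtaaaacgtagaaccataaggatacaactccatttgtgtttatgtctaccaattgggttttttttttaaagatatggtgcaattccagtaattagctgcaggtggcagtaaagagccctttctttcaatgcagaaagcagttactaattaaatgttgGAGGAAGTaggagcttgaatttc
Tlr2 (chr3:83841609-83841858, minus strand): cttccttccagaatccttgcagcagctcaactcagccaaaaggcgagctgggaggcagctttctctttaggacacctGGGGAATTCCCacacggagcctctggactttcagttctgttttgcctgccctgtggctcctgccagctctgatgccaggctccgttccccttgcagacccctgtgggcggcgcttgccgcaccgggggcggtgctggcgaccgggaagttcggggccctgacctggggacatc
Tlr8 (chrX:167264330-167264579, minus strand): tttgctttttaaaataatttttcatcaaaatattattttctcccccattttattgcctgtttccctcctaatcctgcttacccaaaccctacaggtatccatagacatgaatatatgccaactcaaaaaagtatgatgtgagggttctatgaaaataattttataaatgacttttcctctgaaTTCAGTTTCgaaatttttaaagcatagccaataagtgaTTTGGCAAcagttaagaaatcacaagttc

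Values were deposited as log2 CPM, where CPM are counts scaled to the size of the library, and CPM without the prior count were computed from them. The lowest value, -3.65, belongs to libraries with no count of a gene. At the mean effective library size of 25149682 reads, a gene with no count may still be present at up to 0.119 CPM, the equivalent of 3 counts. This limit covers counting error only and differs between libraries, whose reads were not equal in number. Comparisons used limma on log2 CPM with all 24 libraries in a single fit, with 2-sided p-values adjusted over the 14159 genes, and genes with an adjusted p under 0.05 were called. With 3 libraries against 3, the smallest p of an exact permutation test is 0.1. The labels number the samples without naming animals, so p-values measure the spread between these samples. Replicate 2 of PE-treated MRL mice stood apart: its profile correlated with the rest of its group at 0.819, the lowest of all libraries. Its summed CPM over the genes analysed was also the lowest, at 733112, with replicate 2 of PE-treated B6 mice next. That sum follows the scaling and is not a count of reads. The study's list of reads does not place the MRL library lowest. Of 368 genes called between uninjured strains, this library lay nearer to the MRL mean for 63.6%, against 82.6% and 85.1% in the other PE-treated MRL libraries, and no B6 library exceeded 20.4%. Its value lies between those of the strains, and whether the library is mixed or wrongly labelled was not tested, so it enters under its label. Results that rest on it are given with and without it.

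**Figure D1:**
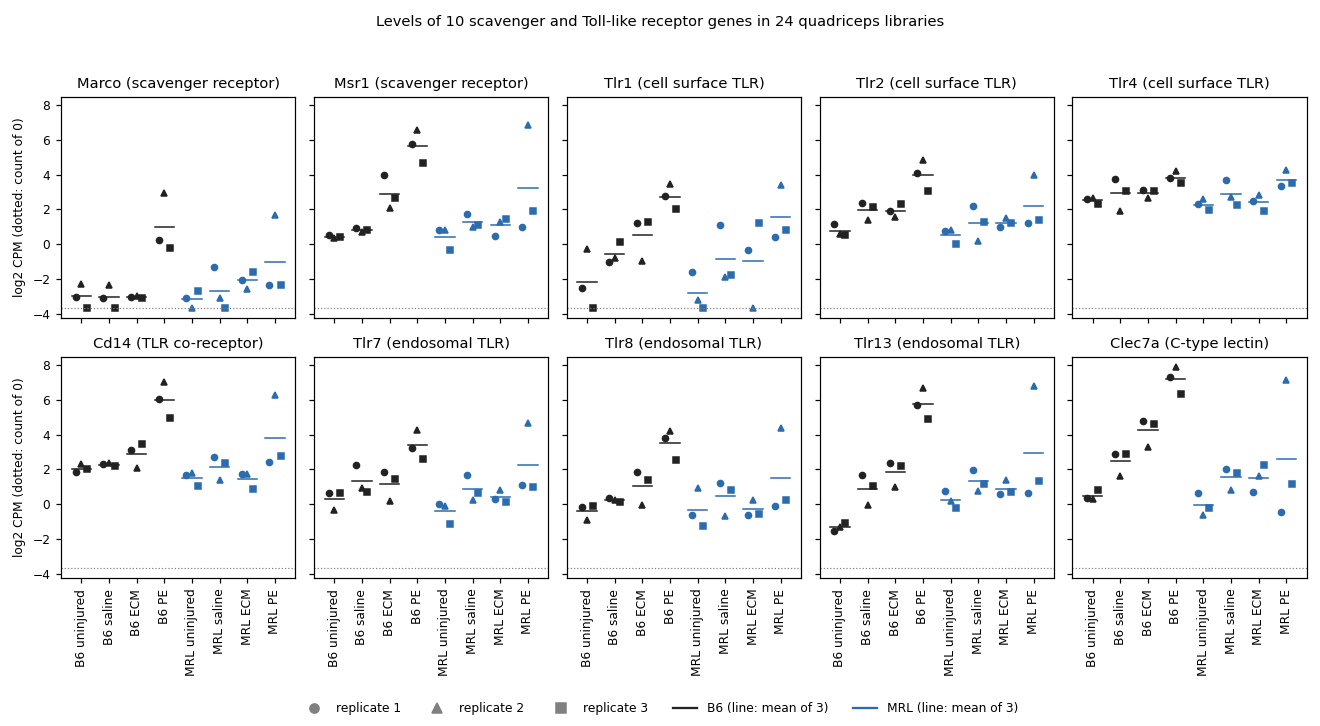
Level of each receptor gene (log2 CPM, vertical axis) in the 24 libraries by strain and treatment, with a symbol per replicate number, a line at the mean of 3 libraries and a dotted line at a count of 0. PE-treated B6 libraries were the group with the highest mean for each gene, and among PE-treated MRL libraries replicate 2 stood far above replicates 1 and 3 for most genes.

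In B6 mice, injured muscle with PE had higher levels of all 10 receptors than uninjured muscle. In this comparison, which joins the injury and the implant, log2 fold changes ran from 1.31 for Tlr4 to 7.05 for Tlr13, with a median of 3.97 against 0.02 over all genes, and all 10 were called higher, as were 14.7% of all genes (24.8% were called in either direction). The 3 PE-treated libraries lay above the 3 uninjured ones for each of the 10, which held for 27% of all genes. In linear terms Tlr13 was 132-fold and Clec7a 102-fold higher, while Tlr4 was 2.47-fold higher. These folds are on the scale of log2 CPM with its prior, which understates changes of low genes. Marco was in the matrix only through PE-treated libraries, so its place among the 10 was favoured in advance. The calls of Marco, Tlr1, Tlr4, Tlr7 and Tlr8 were lost without replicate 2 of PE-treated B6 mice (adjusted p = 0.0815, 0.0584, 0.135, 0.0796 and 0.0527), and 5 members then remained called.

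The scavenger receptors started from different levels. Msr1, the class A receptor for modified lipoproteins, had 1.39, 1.19 and 1.24 CPM in uninjured B6 libraries, 1.81, 1.55 and 1.67 after saline, 15.4, 4.24 and 6.28 after ECM, and 53.2, 94.8 and 25.1 after PE. The saline libraries sat just above the uninjured ones, and the ECM and PE groups each formed a separate, higher band. Its mean log2 CPM rose from 0.43 ± 0.11 (SD, n = 3) in uninjured to 5.65 ± 0.96 in PE-treated muscle, a change of 5.22 (standard error 0.95, adjusted p = 0.00266). Marco, a class A receptor for unopsonized particles and bacteria, was near the limit of detection outside PE. It had 0.0439, 0.126 and 0 CPM in uninjured B6 libraries, 0.0381, 0.12 and 0 after saline, 0.0427, 0.0479 and 0.0398 after ECM, and 1.12, 7.56 and 0.801 after PE. All 9 B6 libraries without PE thus stayed near or under the equivalent of 3 counts, and all 3 with PE stood above them. Its fitted change of 3.99 on the log2 scale (standard error 0.96, adjusted p = 0.0098) depends on the prior count. Only PE-treated libraries held Marco above 1 CPM (1.12 and 7.56 in B6 mice, 3.16 in replicate 2 of MRL mice). The matrix keeps genes above 1 CPM in at least 3 libraries, so Marco entered it through PE. A rise under PE was thus favoured in advance, here and in the counts and medians of members in other PE comparisons.

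Clec7a, which encodes Dectin-1, the C-type lectin receptor for fungal beta-glucan, reached the highest level per length under PE. It had 1.22, 1.14 and 1.66 CPM in uninjured B6 libraries, 7.25, 3.02 and 7.4 after saline, 27.8, 9.85 and 24.3 after ECM, and 157, 236 and 79 after PE. The 4 groups did not overlap and ordered as uninjured, saline, ECM and PE. The change from uninjured to PE was 6.67 (standard error 1.16, adjusted p = 0.00221). Per kilobase of its canonical transcript, the median level of Clec7a in PE-treated B6 muscle was 222 CPM per kilobase, followed by Cd14 at 40.1, Msr1 at 37.4 and Tlr13 at 11.4, with Marco lowest at 0.58. In uninjured B6 muscle the order on the same scale was Cd14 at 2.4, Clec7a at 1.73 and Tlr4 at 1.47, with Marco at 0.0228. Under PE, Tlr4 stood at 3.39, below Tlr2 at 5.67 and above Tlr8 at 2.79.

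Cd14, on chromosome 18, encodes the lipopolysaccharide co-receptor that hands its ligand to Tlr4. It had 3.47, 4.84 and 3.94 CPM in uninjured B6 libraries, 4.81, 5.02 and 4.5 after saline, 8.47, 4.19 and 10.8 after ECM, and 65.7, 131 and 30.6 after PE. The PE libraries lay above all others of this strain, which reached 10.8 CPM at most. The change from uninjured was 3.96 (standard error 0.71, adjusted p = 0.00259). Tlr4, the receptor for lipopolysaccharide itself, had 6.04, 6.25 and 4.86 CPM in uninjured and 13.9, 18.2 and 11.2 in PE-treated muscle, a change of 1.31 (standard error 0.41, adjusted p = 0.0285). Its saline libraries ran from 3.76 to 13.5 CPM and overlapped those of PE. The co-receptor and the receptor it serves thus differed in the size of the change.

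Tlr2, which pairs with Tlr1 or Tlr6 to bind bacterial lipopeptides, had 2.15, 1.43 and 1.39 CPM in uninjured and 17.1, 28.3 and 8.24 in PE-treated B6 muscle (change 3.23, standard error 0.60, adjusted p = 0.00298). Its partner Tlr1 was barely detected at rest, with 0.0948, 0.755 and 0 CPM, and had 6.71, 10.8 and 3.96 under PE (change 4.88, standard error 1.15, adjusted p = 0.00891). The uninjured Tlr1 levels straddled the limit of 3 counts, so this change is less precise than that of Tlr2.

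The endosomal receptors rose unequally. Tlr13, a mouse receptor for bacterial ribosomal RNA, had 0.261, 0.334 and 0.4 CPM in uninjured B6 libraries, 3.16, 0.875 and 2.01 after saline, 5.04, 1.91 and 4.44 after ECM, and 51.6, 101 and 29.6 after PE. Its uninjured libraries lay below all injured ones and its PE libraries above all others. The change to PE was 7.05 (standard error 1.01, adjusted p = 0.00152). Tlr8 had 0.828, 0.453 and 0.838 CPM in uninjured and 13.8, 18.1 and 5.72 in PE-treated muscle (change 3.89, standard error 0.88, adjusted p = 0.00714). Its neighbour Tlr7, a receptor for single-stranded RNA, had 1.46, 0.714 and 1.5 CPM in uninjured and 9.48, 19.2 and 6.01 in PE-treated muscle (change 3.06, standard error 0.77, adjusted p = 0.011). Tlr7 and Tlr8 both sat low at rest and did not overlap between uninjured and PE-treated muscle.

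The control injury shares the surgery with PE and lacks the implant. Against saline, the members rose by a median of 3.52 on the log2 scale against 0.02 over all genes, and 6 were called higher (Cd14, Msr1, Tlr13, Marco, Clec7a and Tlr8), where 5.37% of all genes were. Their changes were 3.73, 4.84, 4.85, 4.02, 4.69 and 3.25, with adjusted p = 0.0173, 0.0177, 0.0198, 0.0258, 0.0283 and 0.038. Tlr2 (2.03, adjusted p = 0.0529), Tlr1 (3.31, 0.0866), Tlr7 (2.07, 0.105) and Tlr4 (0.91, 0.169) did not pass. In 9 of the 10 the groups did not overlap, Tlr4 being the exception, beside 18.7% of all genes. The 6 calls were fragile at this group size: 0 members were called without replicate 1 or 2 of PE-treated B6 mice or without replicate 2 or 3 of saline-treated B6 mice, 3 without replicate 1 of saline-treated mice, and 9 without replicate 2 of PE-treated MRL mice, which enters the shared spread only. The direction was the same in each of these fits. Shares over all genes in them are not given, so the counts do not set the members apart.

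Against ECM, the other implant, PE levels were higher for all 10 by 0.88 (Tlr4) to 4.03 (Marco), yet 0 were called by limma (adjusted p from 0.0707 for Cd14 to 0.278 for Tlr1), where 0.226% of all genes were. Without adjustment, 9 of the 10 had a p under 0.05, beside 2911 of the 14159 genes. The 3 PE libraries lay above the 3 ECM libraries for all 10, which held for 19.5% of genes. Without replicate 2 of PE-treated MRL mice, which enters through the shared spread only, 8 members were called, all but Tlr1 and Tlr4, beside 8.91% of all genes called higher in that fit. The comparisons of PE with uninjured, saline and ECM share the PE libraries and are not independent.

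**Figure D2:**
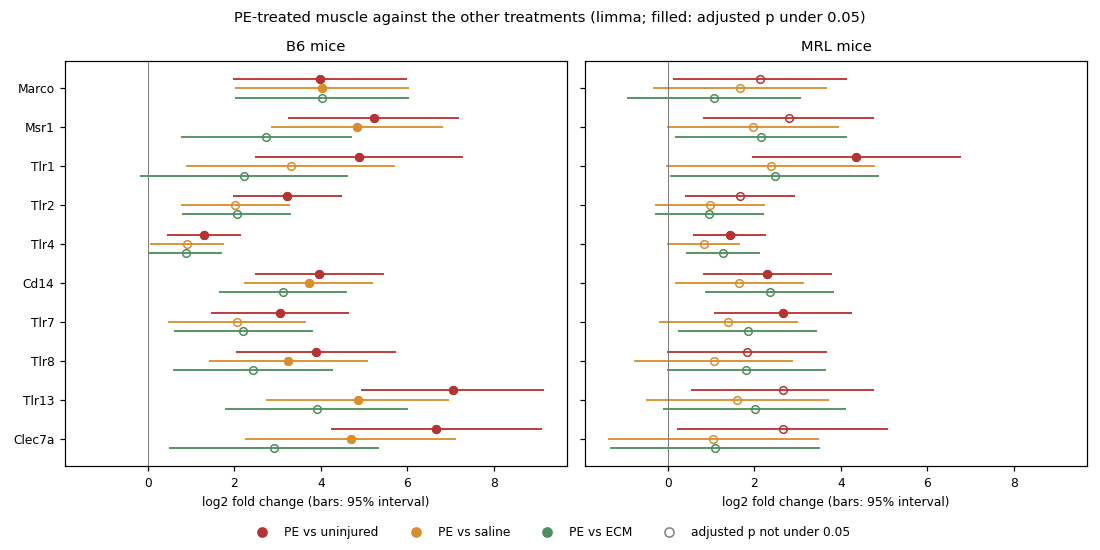
Log2 fold change of each receptor gene in PE-treated muscle against uninjured, saline-treated and ECM-treated muscle of the same strain (horizontal axis, with 95% intervals), for B6 and MRL mice, with filled points at an adjusted p under 0.05. In B6 mice all 10 points against uninjured muscle are filled and 6 against saline, and in MRL mice 4 are filled, all against uninjured muscle.

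Injury without PE moved the receptors less. Saline against uninjured B6 muscle gave 0 members called by limma, where 0% of all genes were called. An unadjusted p under 0.05 was reached by 1 member (Tlr13), beside 1751 of the 14159 genes. For 6 members the saline libraries all lay above the uninjured ones, beside 8.59% of genes. ECM against uninjured B6 muscle also gave 0 called, where 0.424% of all genes were, with 4 at an unadjusted p under 0.05, beside 2372 genes. The highest values were 3.75 for Clec7a (standard error 1.16, adjusted p = 0.139), 3.14 for Tlr13 (1.01, 0.149) and 2.48 for Msr1 (0.95, 0.207). For 5 members the ECM libraries lay above the uninjured ones without overlap, beside 17.7% of genes. ECM against saline gave 0 called members, where 0.0283% of genes were called, and 1 (Msr1) with an unadjusted p under 0.05, beside 565 genes. Both comparisons of injury with uninjured muscle use the same 3 uninjured libraries.

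In MRL mice the PE libraries did not form a group. Clec7a had 1.49, 0.587 and 0.799 CPM in uninjured MRL libraries, 3.96, 1.72 and 3.45 after saline, 1.54, 3.04 and 4.65 after ECM, and 0.655, 140 and 2.17 after PE. The single high library, replicate 2, was at the level of PE-treated B6 muscle, while the other 2 stood within the range of uninjured and saline-treated MRL muscle. Msr1 also had a single high library, with 1.92, 114 and 3.63 CPM after PE against 3.25, 1.88 and 2.07 after saline. Its uninjured libraries had 1.67, 1.73 and 0.722 CPM, below all 3 PE libraries. Tlr13 had 1.5, 110 and 2.4 CPM after PE against 3.89, 1.63 and 2.17 after saline. Marco had 0.116, 3.16 and 0.117 CPM after PE against 0.334, 0.0401 and 0 after saline. Its uninjured libraries had 0.0376, 0 and 0.0762 CPM, also below the PE libraries, of which 2 were at or under the limit of 3 counts. Cd14 had 5.2, 76.5 and 6.79 CPM after PE and 3.15, 3.46 and 1.97 in uninjured muscle, so that all 3 PE libraries lay above the uninjured ones. Tlr4, with 10, 19.3 and 11.2 CPM after PE against 4.81, 5.89 and 3.77 in uninjured muscle, was the gene whose PE libraries lay closest together, at a mean log2 CPM of 3.70 ± 0.50 (SD, n = 3).

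Against uninjured MRL muscle, 4 members were called higher, where 5.95% of all genes were. They were Tlr1 (4.36, adjusted p = 0.0448), Tlr4 (1.43, 0.0463), Tlr7 (2.66, 0.0463) and Cd14 (2.30, 0.0489). Those not called were Msr1 (2.80, 0.0581), Tlr2 (1.67, 0.0679), Tlr13 (2.66, 0.0769), Clec7a (2.66, 0.11), Marco (2.14, 0.118) and Tlr8 (1.83, 0.141). In 7 of the 10 the PE and uninjured groups did not overlap, beside 18.9% of genes. The 4 calls sit close to the threshold: 0 members were called without replicate 2 of PE-treated MRL mice, and 8 and 7 without replicates 1 and 3 of that group. They were also lost when single libraries of groups outside the comparison were left out, since the adjusted p-values move with the shared spread. Over the 24 fits without 1 library, counts ran from 0 to 8. In these 24 fits the call was lost in 13 for Tlr1, 15 for Tlr4, 16 for Tlr7 and 17 for Cd14. Shares over all genes in them are not given, so the counts do not set the members apart. Against saline, 0 members were called by limma, where 0% of genes were. At an unadjusted p under 0.05 stood 1 member (Cd14), beside 3298 of the 14159 genes. No member had groups that did not overlap, beside 10.8% of genes. Without replicate 2, Clec7a, Tlr8 and Tlr13 were lower in PE-treated than in saline-treated MRL muscle by -1.20, -0.37 and -0.33, none of them called. Against ECM, 0 members were called by limma, where 0% of genes were, and 5 had an unadjusted p under 0.05, beside 4022 genes. The remaining MRL comparisons gave 0 called members: saline with uninjured (0% of genes called), ECM with uninjured (0.0141%) and ECM with saline (0.00706%). In these 3, 0 members had an unadjusted p under 0.05, beside 439, 538 and 503 genes.

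Between strains under PE, all 10 receptors had lower means in MRL than in B6 mice, by a median of -1.99 on the log2 scale against -0.02 over all genes. Clec7a was the only member called lower, at -4.54 (standard error 1.16, adjusted p = 0.0347), where 1.74% of all genes were. With replicate number as a block, since same-numbered PE libraries of both strains deviated together, its adjusted p was 0.0532, and 0.236 with only the PE groups in the fit. No member had groups that did not overlap, beside 7.59% of genes, because replicate 2 of PE-treated MRL mice reached B6 levels. The Clec7a call was lost without any 1 of the other 5 PE-treated libraries. Without replicate 2 of PE-treated MRL mice, 8 members were called lower, all but Tlr1 and Tlr4, beside 14.1% of all genes. Clec7a was then lower by -6.80 (adjusted p = 3.54e-07), Tlr13 by -4.77 (7.51e-06), Msr1 by -4.21 (1.85e-05), Cd14 by -3.42 (8.64e-05), Tlr8 by -3.41 (0.00124), Marco by -3.36 (0.00711), Tlr2 by -2.68 (0.000854) and Tlr7 by -2.32 (0.00888). This fit leaves out the highest PE-treated MRL library and rests on the 2 others, so wider gaps follow from the choice. It was picked from the fits without 1 library because this library stood apart. Tlr4 stayed close to even, at -0.13 with the library (95% interval -0.99 to 0.72) and -0.42 without it (adjusted p = 0.512). Leaving out both PE libraries numbered 2, an alternative chosen after seeing the data, gave 7 called members. The share over all genes in that fit is not given, so this count does not set the members apart.

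**Figure D3:**
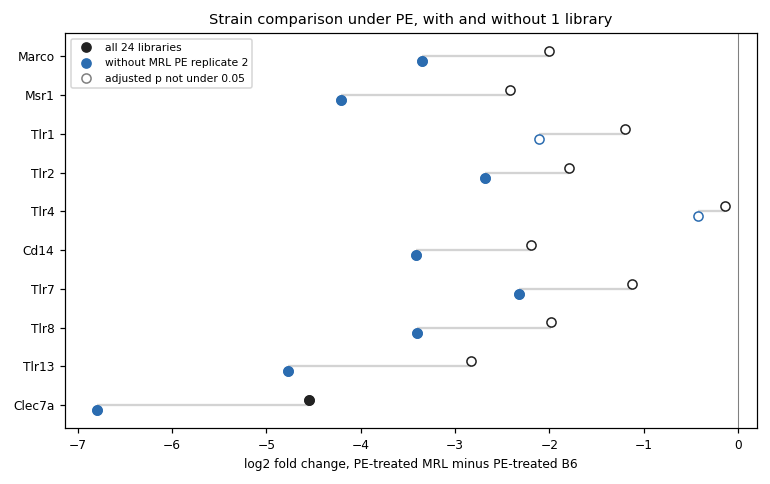
Log2 fold change of each receptor gene between PE-treated MRL and PE-treated B6 muscle (horizontal axis, MRL minus B6), fitted with all 24 libraries and without replicate 2 of PE-treated MRL mice, with filled points at an adjusted p under 0.05. With all libraries Clec7a alone is filled, and without that library 8 genes are.

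The test of whether the PE response itself differed between strains gave 0 called members with all libraries, for PE against saline and for PE against ECM, where 0% of genes were called in either. Without adjustment, 3 and 1 members had a p under 0.05, beside 614 and 522 of the 14159 genes. For PE against saline the estimates ran from -3.64 for Clec7a (95% interval -7.08 to -0.19) and -3.25 for Tlr13 (-6.24 to -0.26) to -0.08 for Tlr4 (-1.29 to 1.12). Without replicate 2 of PE-treated MRL mice, 5 members were called with a smaller PE response in MRL mice, beside 3.74% of genes. They were Clec7a (-5.89, adjusted p = 0.000302), Tlr13 (-5.18, 0.000383), Msr1 (-4.67, 0.000668), Cd14 (-3.30, 0.0068) and Tlr8 (-3.62, 0.026). Here too the highest library of its group was left out after it was seen to stand apart, which by itself widens these differences. The tests of saline against uninjured and of ECM against saline between strains gave 0 called members by limma, and 0% of genes called. At an unadjusted p under 0.05 stood 0 members, beside 570 and 320 genes.

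Without PE, no member was called between the strains, which does not show that their levels were alike. Between uninjured mice 0 members were called, where 2.6% of genes were, and the estimates ran from -0.72 for Tlr7 to 1.55 for Tlr13. Tlr13 had 1.65, 1.05 and 0.795 CPM in uninjured MRL muscle, above the 3 uninjured B6 libraries, with an adjusted p of 0.659. Cd14 went the other way, with 3.15, 3.46 and 1.97 CPM in MRL libraries, all below the 3.47 to 4.84 CPM of B6 libraries (-0.53, adjusted p = 0.878). Over all 14159 genes, 1732 were higher and 1361 lower in uninjured MRL mice without overlap. Between saline-treated mice 0 were called, where 2.51% of genes were. In neither comparison, of uninjured or of saline-treated mice, did a member have an unadjusted p under 0.05, beside 1549 and 1880 genes. Between ECM-treated mice 0 were called, where 2.66% of genes were, and 1 (Clec7a) had an unadjusted p under 0.05, beside 1901 genes. Under ECM 9 of the 10 members had lower means in MRL mice, with a median of -1.15. Clec7a, Cd14, Msr1 and Tlr2 lay below all B6 libraries in all 3 MRL libraries, by -2.71, -1.42, -1.82 and -0.69 (adjusted p = 0.313, 0.403, 0.423 and 0.658), beside 12.8% of genes. In the ECM comparison Marco went the other way, with 0.161, 0.0893 and 0.256 CPM in MRL against 0.0398 to 0.0479 in B6 muscle, levels of a few counts that were not called. MRL reads were quantified against a reference based on B6, and the effect of this on the levels was not tested.

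Markers of blood cells moved with the receptors. The summed CPM of 10 macrophage markers (such as Adgre1, Csf1r and Cd68), none of which was at 0 in any library, ran from 148 to 184 in uninjured, 313 to 375 in saline-treated, 273 to 688 in ECM-treated and 1590 to 5650 in PE-treated B6 muscle. It was 83.6 to 180 in uninjured and 240, 4720 and 246 in PE-treated MRL muscle, where the high value is replicate 2. All 10 markers were called higher in PE-treated than uninjured B6 muscle, with a median of 3.50. The 4 pan-leukocyte markers (Ptprc, Coro1a, Laptm5 and Cd53) were all called, with a median of 4.25. Of 8 neutrophil markers 5 were in the matrix, and all 5 were called, with a summed level of 1 to 3.16 CPM in uninjured and 16.8 to 130 in PE-treated B6 muscle and 2.92, 24.7 and 2.8 in PE-treated MRL muscle. S100a8, S100a9 and Mmp8 were at 0 in some libraries, and Retnlg, Ly6g and Ngp were not analysed here. Siglecf, the eosinophil marker analysed, had no count in the 3 uninjured B6 libraries and 3.09, 5.21 and 1.37 CPM in those with PE, and was called higher, with a fitted change that depends on the prior count. Only PE-treated libraries held it above 1 CPM, so it passed the filter through PE, which favoured this call. Epx, Prg2, Ccr3 and Il5ra were not analysed here. ECM-treated B6 libraries had 0.0404 to 0.594 CPM of Siglecf, while the study's flow cytometry found more SiglecF+ eosinophils with ECM than with PE. Of 6 dendritic cell markers 3 were called higher, and the summed level was 11.8 to 17.1 CPM in uninjured and 13.7 to 17.3 in PE-treated B6 muscle. Muscle fibre markers summed to 44500 to 96900 CPM in PE-treated against 118000 to 154000 in uninjured B6 muscle and were 26600 in replicate 2 of PE-treated MRL mice, the lowest of all libraries. Of 4 fibroblast markers 2 were called higher, of 4 adipocyte markers 1 lower and of 4 endothelial markers 4 lower. In MRL mice 7 of the 10 macrophage markers were called higher in PE-treated than uninjured muscle, and 0 of the leukocyte and neutrophil markers. Between strains under PE, macrophage markers had a median of -2.02 with 1 of 10 called lower, and neutrophil markers -2.55 with 2 of 5. Without replicate 2 of PE-treated MRL mice, all 10 macrophage, 4 leukocyte and 5 neutrophil markers were called lower in MRL mice, beside the 8 receptors and 14.1% of all genes. Adipocyte markers were higher in MRL mice under PE (median 4.21, 1 of 4 called, none overlapping), with sums of 1650, 98.4 and 975 CPM against 24.6 to 71.8 in B6 muscle. The part of each of these in the receptor levels was not tested.

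Set against the macrophage marker sum of the same library, the receptors did not keep a fixed ratio. In B6 mice Clec7a was 0.772% to 0.904% of that sum in uninjured, 0.967% to 2.22% in saline-treated, 3.56% to 4.05% in ECM-treated and 4.17% to 5.13% in PE-treated muscle, with no overlap between the groups. In MRL mice it was 0.327% to 1.1% in uninjured and 0.273% to 2.96% in PE-treated muscle. Tlr13 was 0.171% to 0.226% of the sum in uninjured and 1.69% to 1.87% in PE-treated B6 muscle, and 0.584% to 1.22% in uninjured MRL muscle. In PE-treated MRL muscle it was 2.33% in replicate 2 and 0.624% and 0.973% in the others, within the uninjured range. Msr1 was 0.673% to 0.909% in uninjured and 1.58% to 1.74% in PE-treated B6 muscle. Tlr4, Tlr2 and Tlr7 were lower under PE without overlap in B6 mice, and overlapped in MRL mice. Tlr4 was 2.64% to 4.22% in uninjured and 0.323% to 0.705% in PE-treated B6 muscle, Tlr2 0.753% to 1.4% and 0.5% to 0.559%, and Tlr7 0.483% to 0.956% and 0.31% to 0.378%. In MRL muscle Tlr4 was 3.28% to 4.5% in uninjured and 4.16%, 0.408% and 4.54% in PE-treated libraries. There Tlr2 was 0.924% to 1.19% and 0.338% to 1.04%, and Tlr7 0.446% to 0.698% and 0.537% to 0.875%. Msr1 overlapped as well, at 0.863% to 1.23% in uninjured and 0.798% to 2.42% in PE-treated MRL muscle. The remaining 4 overlapped between uninjured and PE-treated B6 muscle, among them Cd14 at 2.14% to 3.27% and 1.92% to 2.32% and Tlr8 at 0.306% to 0.541% and 0.319% to 0.449%, with Tlr1 and Marco near the detection limit in uninjured muscle. These shares are descriptions over 3 libraries a group, and 1 of the markers, Cd68, is itself a scavenger receptor.

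**Figure D4:**
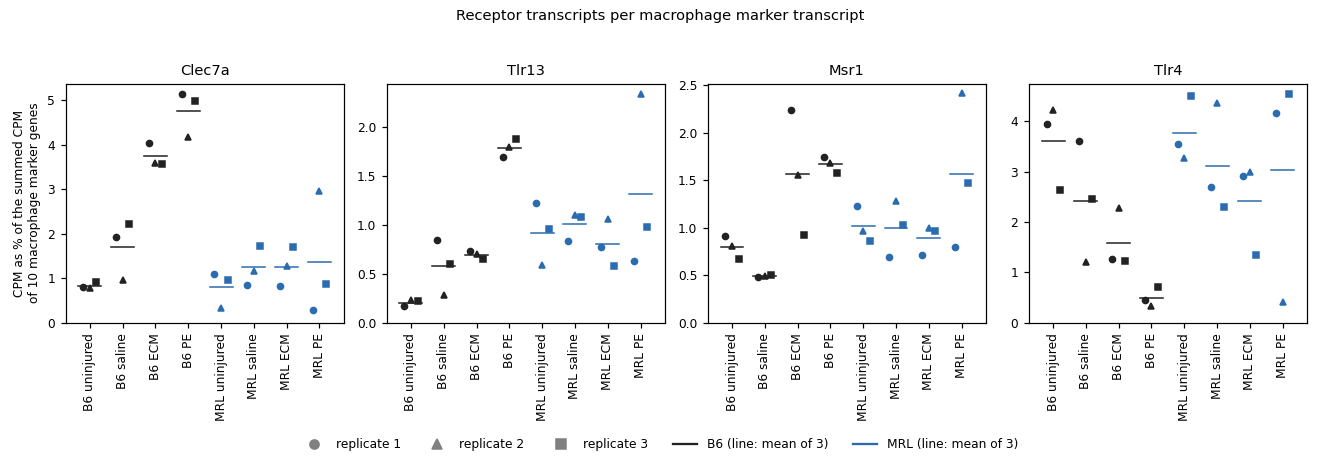
CPM of Clec7a, Tlr13, Msr1 and Tlr4 as a percent of the summed CPM of 10 macrophage marker genes (vertical axis) in each library, by strain and treatment, with a line at the mean of 3 libraries. In B6 mice Clec7a and Tlr13 are highest under PE, at 4.17% to 5.13% and 1.69% to 1.87%, and Tlr4 is lowest there, at 0.323% to 0.705%.

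Other genes of the same pathways were called in part. In PE-treated against uninjured B6 muscle, 3 of 5 other Toll-like receptors were called higher: Tlr12 (3.17), Tlr6 (2.48), the second partner of Tlr2, and Tlr9 (2.35), the receptor for unmethylated DNA. Tlr3 and Tlr5 did not pass, and Tlr11 was not analysed here. Of 7 accessory proteins 5 were called higher, with the largest changes in Cd180 (4.59), Ly86 (3.12), Unc93b1 (2.83), which escorts endosomal receptors out of the endoplasmic reticulum, and Ly96 (1.95), the lipopolysaccharide-binding partner of Tlr4. Of 20 adaptors, kinases and transcription factors 9 were called higher and 1, Tab2, lower. The largest changes were those of Irf5 (2.96), Ticam2 (2.82), an adaptor of Tlr4, Irf7 (2.07) and Irak2 (1.67), while Myd88 changed by 1.03. Of 6 negative regulators 2 were called higher, Tnfaip3 (2.00), which restrains NF-kB, and Nfkbia (1.06). Over all genes, 14.7% were called higher in this comparison. The medians were 2.35 for the other Toll-like receptors, 1.43 for the other scavenger receptors and 0.46 for the adaptors, beside 3.97 for the 10 members and 0.02 over all genes.

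Of 15 other scavenger receptors 6 were called higher and 1 lower in the same comparison. Cd68 (5.76), Olr1 (4.71), a receptor for oxidized lipoprotein, and Cxcl16 (3.93) rose most among the 6, and Stab2 (-1.69), a hyaluronan receptor of endothelium, was lower. Of 13 C-type lectins and genes of Syk-Card9 signalling 11 were called higher, among them Clec4d (8.19), Clec4e (7.45), Clec12a (5.42) and Fcer1g (4.71), and the kinase Syk, which acts below Clec7a, rose by 3.77. Of 12 cytokine and feedback targets 9 were called higher, led by the neutrophil chemoattractant Cxcl2 (8.34), Il1rn (7.04), Ccl3 (6.40) and Ccl4 (5.79). In MRL mice the same comparison called higher 2 of the accessory proteins (Unc93b1 and Cnpy3), 3 of the adaptors and kinases (Irf7, Myd88 and Irak4), 1 of the negative regulators (Irak3), 2 of the other scavenger receptors (Lrp1 and Scarb1), and 0 of the other Toll-like receptors, lectin genes and cytokine genes. Over all genes, 5.95% were called higher there. The medians of the lectin and cytokine lists were 1.70 and 1.52 against 0.07 over all genes.

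Against saline, 6 of the 13 lectin genes and 8 of the 12 cytokine genes were called higher under PE in B6 mice, and none of the 5 other Toll-like receptors, where 5.37% of all genes were. Of these 5, 3 had an unadjusted p under 0.05, beside 3563 of the 14159 genes. Between strains under PE, 5 cytokine genes were called lower in MRL mice, Cxcl2 (-5.94), Ccl3 (-5.10), Il1b (-4.80), Ccl4 (-3.98) and Ptgs2 (-3.06), together with Clec4d (-5.17) and Ticam2 (-2.54), beside 1.74% of all genes. Without replicate 2 of PE-treated MRL mice, 8 of the 12 cytokine genes and 10 of the 13 lectin genes were called lower, beside 14.1% of all genes.

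**Figure D5:**
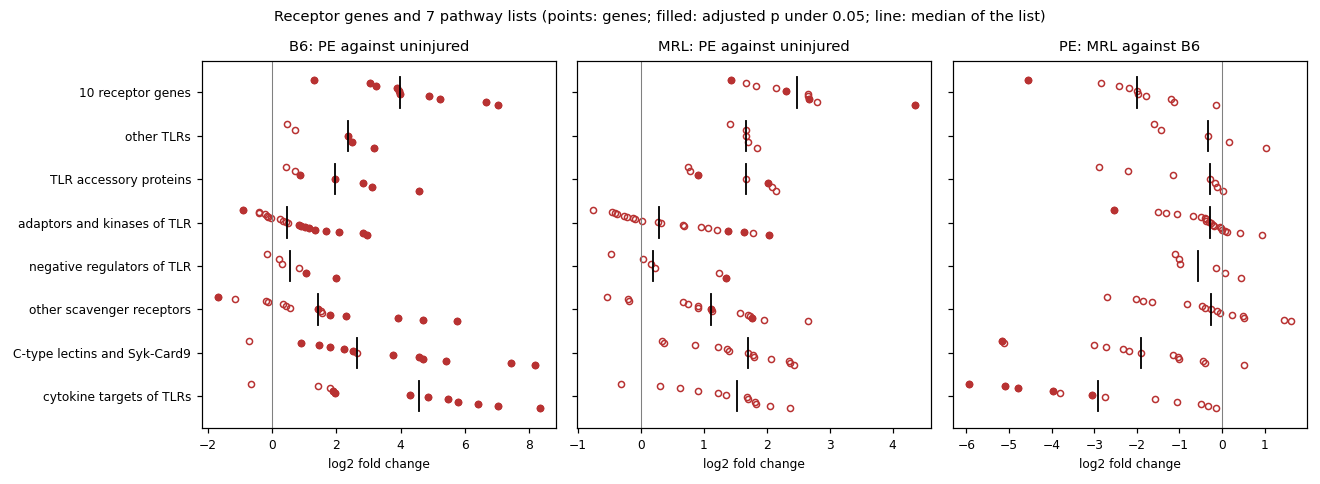
Log2 fold changes (horizontal axis) of the 10 receptor genes and of the genes in 7 pathway lists (rows) for PE against uninjured muscle in B6 and in MRL mice and for MRL against B6 under PE. Points are genes, filled at an adjusted p under 0.05, and the line is the median of a list, which in B6 mice was 3.97 for the receptors, 2.35 for the other Toll-like receptors, 1.43 for the other scavenger receptors and 0.46 for the adaptors and kinases.

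Across the 24 libraries, the receptors followed each other to different degrees. Pearson's r of log2 CPM between pairs of the 10 genes ran from 0.657 to 0.949, with a median of 0.852 over 45 pairs, and the median was 0.724 without both PE libraries numbered 2. The genes outside the 10 whose levels were most like each member were, for Msr1, Cd68 (0.984), Ncf1 (0.984) and Laptm5 (0.981), for Cd14, St8sia4 (0.985), Gm14548 (0.979) and Man2b1 (0.979), and for Clec7a, Bcl2a1b (0.979), Ctss (0.978) and Pstpip1 (0.974). Tlr13 was most like Cybb (0.977), Cd68 (0.973) and Cd300lb (0.970), Tlr8 most like Nckap1l (0.969), Itgam (0.965) and Laptm5 (0.965), and Tlr7 most like Csf1r (0.971), Arhgdib (0.971) and Slamf9 (0.964). Tlr2 was most like AI607873 (0.972), Rap2b (0.969) and Snx20 (0.968), and Marco most like Rab43 (0.933), Fam83f (0.931) and Cdc42se2 (0.930). Tlr1 was most like Rasgrp1 (0.935), Rela (0.927) and Prelid1 (0.901), and Tlr4 most like Mgat2 (0.911), Tmed8 (0.910) and Tnfrsf1a (0.910). These values describe libraries that share treatments and scaling, and carry no test.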

How the data were processed

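Libraries were made with poly-A selection, per the labels, from flash-frozen quadriceps. Per the study's methods, the authors quantified reads with kallisto against the Ensembl mouse cDNA, summed transcripts to genes with tximport on the length-scaled TPM scale, kept genes above 1 CPM in at least 3 libraries, used TMM scaling in edgeR and deposited the values as log2 CPM. The build named in the labels is GRCm39. Of 14160 rows, 1 without a symbol was left out. The deposited log2 values of 3 libraries per group were fitted with limma 3.58.1 under R 4.3.3 (1 coefficient per group, variance trend, Benjamini-Hochberg adjustment within a comparison) in 16 comparisons of 2 groups and 4 of strain differences. The procedure was tested on simulated data. Depth entered only as the mean effective library size, although the study lists the reads of each library. Members and gene lists were chosen with earlier results of these data known. Named genes were all members, up to 4 called genes of each pathway list with the largest change, and the 3 genes most correlated with each member; list genes named beyond these were chosen after their values were seen. Residuals of libraries with the same replicate number correlated above 0.1 in all 3 pairs in only 1 comparison, MRL against B6 under PE (0.105, 0.532 and 0.439), where the blocked value is given. Also tried were log2(CPM + 1) values, a minimum mean log2 CPM of 1, library weights (gene by gene), the compared groups only, no variance trend, equal totals, the replicate block and leaving out each library. Copies were found with BLAST 2.17.0, and figures used Python 3.11.15 and matplotlib 3.10.9.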

Additional observations from a re-analysis of the deposited data

How the results depend on the processing

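Groups of 3 libraries limit every comparison, the detection limit rests on a mean library size, and levels of Marco and Tlr1 at rest lie near that limit. The number of members called in B6 mice between PE and uninjured muscle was 10 and ran from 5 to 10 when single libraries were left out, and it stayed within 1.5 times that count under the other alternatives run. For B6 PE against saline it was 6, with a range of 0 to 9, and for B6 PE against ECM 0, with a range of 0 to 8. For MRL PE against uninjured muscle it was 4 (0 to 8), for MRL PE against ECM 0 (0 to 1), for MRL against B6 under PE 1 (0 to 8), for MRL against B6 under ECM 0 (0 to 2), for B6 ECM against uninjured 0 (0 to 3), and for the strain difference of PE against saline 0 (0 to 5) and of PE against ECM 0 (0 to 2). In the other comparisons it stayed at 0 in each of these fits. The share of all genes called moves as well when libraries are left out. Between strains under PE it went from 1.74% to 14.1% called lower without replicate 2 of PE-treated MRL mice. These ranges alone therefore do not set the members apart from other genes.

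Library weights called 3 members for B6 saline against uninjured, 4 for B6 ECM against uninjured and 9 for B6 PE against ECM. Of the 14159 genes they called 1076, 2478 and 3720 there. For MRL against B6 they called 1 member under saline, 2 under ECM and 8 under PE, beside 2303, 2164 and 6477 genes. For the strain differences of PE against saline and against ECM they called 5 members each, beside 1909 and 1012 genes. The weight of replicate 2 of PE-treated MRL mice was 0.0939, the lowest. With only the compared groups in the fit, 3 were called for B6 ECM against uninjured and 1 for B6 PE against ECM, beside 893 and 166 genes. For MRL against B6 under ECM 1 was called, beside 387 genes. For MRL PE against uninjured and for MRL against B6 under PE 0 were called, beside 0 and 113 genes. On the log2(CPM + 1) scale 1 was called for B6 PE against ECM and 2 for MRL PE against uninjured, beside 121 and 1131 genes. Without a variance trend 0 members and 0 genes were called for MRL PE against uninjured. With the replicate block 0 members were called for MRL PE against uninjured and 0 for MRL against B6 under PE, also with only the PE groups in that fit (0), and it moved no other count by over 1.5 times. Without both PE libraries numbered 2, a choice made after seeing the data, 5 were called for B6 PE against ECM, 0 for MRL PE against uninjured, 7 for MRL against B6 under PE, and 4 and 1 for the strain differences of PE against saline and against ECM. Shares over all genes are not given for the fit without both of these libraries, so its counts do not set the members apart. The cause of the moves under these alternatives was not tested.

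For 67 changes of single members, 2129 values were computed, of which 1897 kept their direction and side of the threshold, 124 lost a call, 98 gained one and 10 turned direction. For MRL PE against saline, Clec7a turned to -0.89 and Tlr8 to -0.077 with library weights, and without both libraries numbered 2 Clec7a, Tlr8 and Tlr13 stood at -1.20, -0.37 and -0.33. Leaving out single libraries gave -1.20 to 2.59 for Clec7a, -0.37 to 1.86 for Tlr8 and -0.33 to 2.73 for Tlr13 there, and -0.42 to 0.05 for Tlr4 between strains under PE.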
